A study of Homo sapiens with 14 samples.

Results

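The 8 genes examined here, CCN1, CCN2, THBS1, AMOTL1, AMOTL2, LATS2, AJUBA and ANKRD1, are textbook targets of the transcription factors TEAD1 to TEAD4 and their coactivator YAP. They were matched by symbol, and each was found once among the 78686 gene identifiers of the deposited tables. They were chosen with the 3 h response to 5-Ph-IAA in 1 of the 2 sets of libraries in view, so their values in that comparison are a description without a test. The question asked was whether that response was shared by the family and repeated in the other set.

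All 14 RNA-seq libraries came from HCT116, a human colorectal carcinoma line, carrying osTIR1(F74G) and SAF-A-mAID-Halo. osTIR1(F74G) is a modified plant auxin receptor, and 5-Ph-IAA is the auxin analogue that makes it direct a protein with the mAID tag to degradation. SAF-A is the nuclear matrix protein encoded by HNRNPU. The tag and the receptor were present in every library, the vehicle libraries included, no library of the untagged parental line was compared, and the number of clones behind the line was not given. The time-course set held 2 libraries each of DMSO vehicle and of 5-Ph-IAA for 3 h or for 12 h. The Nutlin set held 2 libraries each of DMSO vehicle, Nutlin, 5-Ph-IAA, and 5-Ph-IAA with Nutlin, the treated ones labelled 3 h. The sets were told apart by the wording of the sample titles. The labels do not say that the sets were separate experiments. Nutlin blocks the binding of MDM2 to p53, and HCT116 carries functional p53. Its dose was not stated, nor which drug the 3 h refers to where both were given. The labels do not say that replicates were separate cultures, so a p-value here reflects the spread among these libraries alone, which may be technical.

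YAP and its paralogue TAZ shuttle between cytoplasm and nucleus and have no DNA-binding domain of their own. The Hippo kinases, MST1 and MST2 followed by LATS1 and LATS2, phosphorylate them and keep them out of the nucleus, while cell spreading, tension and serum factors favour their entry. In the nucleus they bind TEAD factors and raise transcription of secreted matrix proteins such as CCN1, CCN2 and THBS1. They also raise several of their own restraints, among them LATS2 and the angiomotins.

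Total expected counts were 29578916 to 35140464 in 5 libraries of the time-course set and 3535163 in the second 12 h library. In the Nutlin set they were 12646787 to 17233327. HNRNPU, which encodes the degraded protein, had a median of 129.5 TPM (a level per length, scaled to the library) over the 14 libraries. Its log2 change at 3 h was 0.012 in the Nutlin set, but degradation acts on the protein, so the mRNA is no check of depletion. The epithelial markers were present, with KRT8 at 1271 to 1997 TPM and EPCAM at 124.9 to 163.0 TPM, whereas VIL1 stayed at or under 0.26 TPM. The summed level of 8 fibroblast markers was 0.46 to 2.64 TPM, with DCN and PDGFRA at 0 in all 14 libraries, and the summed levels of 5 endothelial and of 5 immune markers reached at most 0.4 and 0.67 TPM.

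TEAD factors bind the letters CATTCC, or GGAATG on the opposite strand. The 250 bases before each start site in the RefSeq promoter table (GRCh38.p14) were searched for these 6 letters on both strands, with overlaps counted. Of the 8 genes, 7 had an entry, with 9 windows in all, and CCN1 had none. The letters stood in 5 of the 9 windows, which belong to 5 genes. Of all 35116 promoters in the table, 11.9% held at least 1 copy over the same length, 0.928% at least 2 and 0.0797% at least 3. CCN2 held 3 copies, starting at positions -169, -104 and -95 from the start site. THBS1 held 1 copy, at position -46. These 2 upstream regions are shown because they belong to the secreted targets in the results, and the copies are in capitals. The CCN2 stretch, printed without the last base of its window because GENCODE 29 places that base in the gene, is chr6:131951374-131951622 on the minus strand, and the THBS1 window is chr15:39580829-39581078 on the plus strand.
CCN2: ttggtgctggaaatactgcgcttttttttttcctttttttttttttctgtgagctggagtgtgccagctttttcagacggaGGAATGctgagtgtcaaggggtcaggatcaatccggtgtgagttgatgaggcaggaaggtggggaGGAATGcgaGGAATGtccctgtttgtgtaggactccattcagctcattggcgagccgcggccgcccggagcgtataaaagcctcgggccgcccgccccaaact
THBS1: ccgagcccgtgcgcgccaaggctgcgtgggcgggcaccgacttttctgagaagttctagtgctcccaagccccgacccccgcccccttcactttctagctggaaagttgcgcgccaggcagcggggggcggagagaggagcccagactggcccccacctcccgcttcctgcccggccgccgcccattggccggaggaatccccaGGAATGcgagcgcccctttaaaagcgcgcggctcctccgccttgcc

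ANKRD1 held 2 copies, at positions -220 and -128. AMOTL2 and AJUBA each held 1 copy before the second of 2 start sites, at positions -69 and -59, and none before the other. By GENCODE 29, exons of the same gene covered 189 of the 250 bases for ANKRD1. They covered 147 bases of the AMOTL2 window with the copy and all 250 of that of AJUBA. The proximal ANKRD1 copy and the AMOTL2 and AJUBA copies thus lie within the annotated genes, not upstream of them. The 30 bases around each copy are shown, all on the minus strand, at chr10:90921290-90921319 and chr10:90921198-90921227 for ANKRD1, chr3:134374499-134374528 for AMOTL2 and chr14:22976884-22976913 for AJUBA.
ANKRD1, distal copy: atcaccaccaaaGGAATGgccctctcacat
ANKRD1, proximal copy: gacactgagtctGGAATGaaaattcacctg
AMOTL2: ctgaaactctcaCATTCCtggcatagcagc
AJUBA: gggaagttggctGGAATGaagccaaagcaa

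The windows of AMOTL1 and LATS2 held none of these letters, which says only that the letters were not in these windows. The AP-1 letters TGANTCA stood in the ANKRD1 window and in 6.57% of all promoters, and the CArG box of SRF was in none of the 9 windows and in 1.16% of all promoters. No binding was measured here, so a match is a description of the sequence.

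Per length, the family spanned a wide range. AMOTL2 was the highest, with a median of 11.8 TPM over the 14 libraries (range 7.78 to 16.5), followed by THBS1 at 8.76 (4.63 to 14.1), AJUBA at 8.06 (4.77 to 10.7) and CCN1 at 6.74 TPM (2.97 to 10.6). AMOTL1 had a median of 4.95 TPM (3.47 to 5.78), LATS2 2.15 (1.31 to 5.86) and CCN2 1.18 (0.76 to 2.09). The ranges of neighbours in this order overlapped, down to CCN2, which lay below AMOTL1 in every library but overlapped LATS2. ANKRD1, which encodes a cardiac ankyrin repeat protein, lay apart from the rest, with a median of 0.065 TPM and 41 counts in all 14 libraries together.

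**Figure D1:**
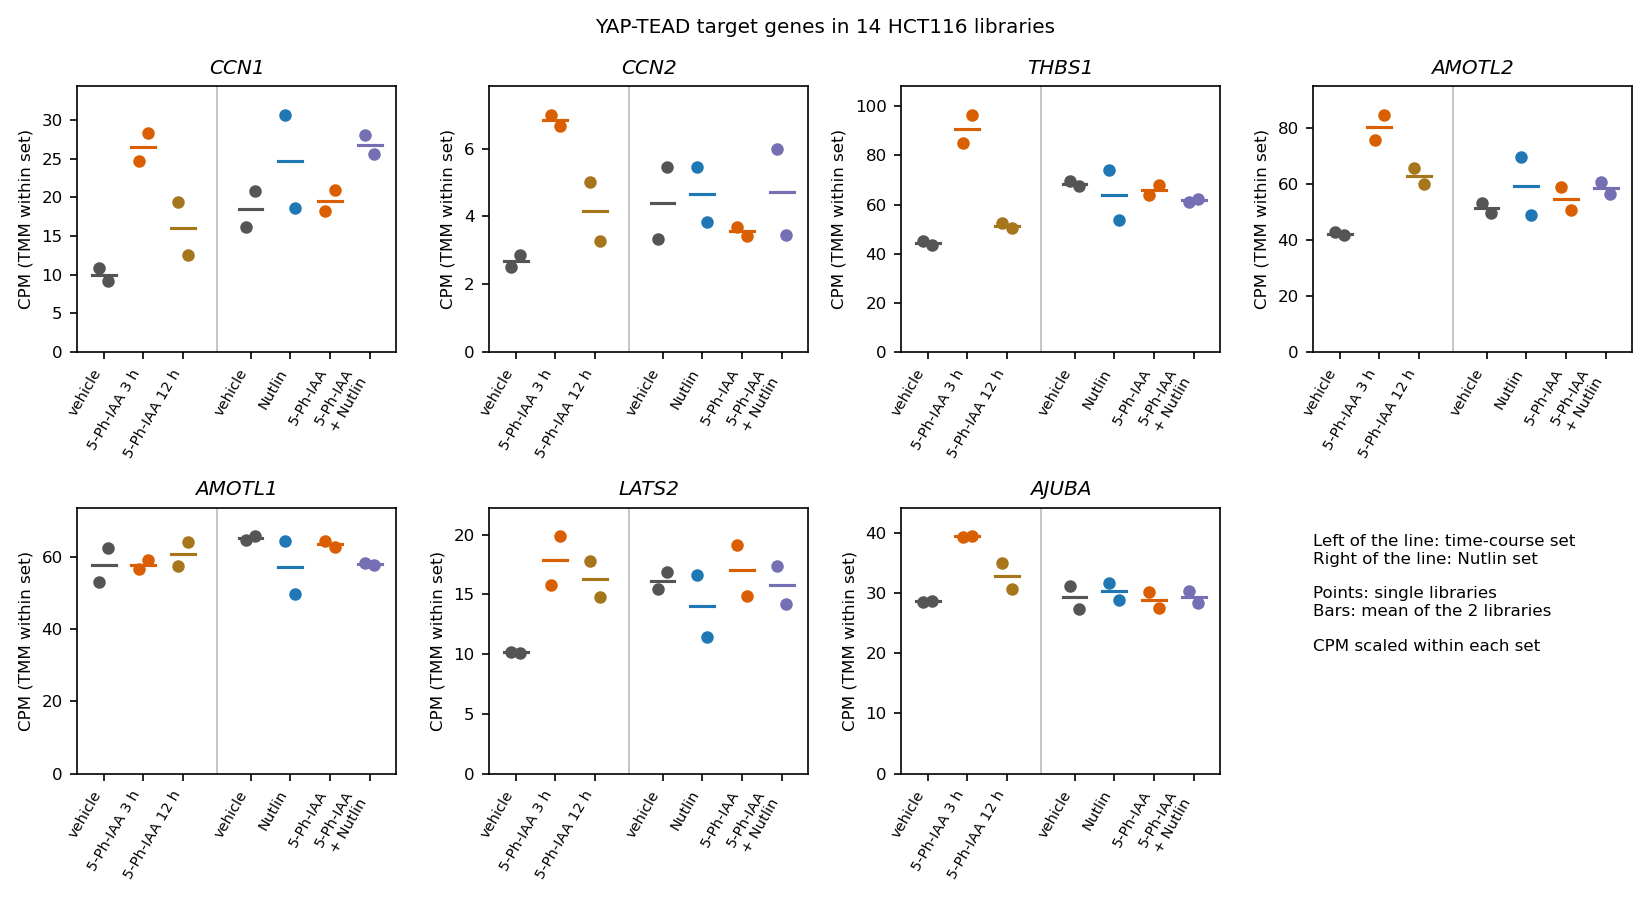
Level of 7 target genes in each of the 14 libraries, in CPM (counts scaled to library depth) with TMM factors within each set, with points for libraries and bars for the mean of 2. At 3 h of 5-Ph-IAA the time-course libraries (left of the line) lie above their vehicle libraries for every gene but AMOTL1, and the 5-Ph-IAA libraries of the Nutlin set (right of the line) lie above their vehicle libraries for none.

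In the time-course set, 6 of the 7 well-measured genes were higher in both 3 h libraries than in both vehicle libraries, and AMOTL1 was not. Of the 19049 genes tested, 18.7% lay wholly above vehicle. ANKRD1 also lay higher, on very few counts. It passed the count filter only through the second 3 h library and the second 12 h library, so it is not counted. None of the 7 lay below, where 20.1% of all genes did. Values are in CPM after TMM scaling within the set, and folds and their SE come from edgeR. In cells measured in bulk, a higher level per cell and a larger share of cells with the transcript cannot be told apart.

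The secreted matrix proteins were the furthest above vehicle. CCN1, a matricellular ligand of integrins (ENSG00000142871, chr1:85580761-85583962, plus strand), measured 10.8 and 9.23 CPM in the vehicle libraries and 24.7 and 28.3 CPM after 3 h. Its log2 fold change was 1.40 ± 0.18 (SE, n = 2 against 2), a 2.64-fold difference. Both treated libraries lay well clear of both controls. CCN2, its close relative and a mediator of fibrosis (ENSG00000118523, chr6:131948176-131951373, minus strand), measured 2.51 and 2.86 CPM in vehicle and 7.005 and 6.68 CPM at 3 h. The log2 fold change was 1.35 ± 0.30, on 84 to 239 counts per library in these groups. THBS1, thrombospondin 1, which binds matrix and activates latent TGF-beta (ENSG00000137801, chr15:39581079-39599466, plus strand), measured 45.1 and 43.7 CPM in vehicle and 84.9 and 96.7 CPM at 3 h. That is a log2 fold change of 1.03 ± 0.098, and the groups were again far apart.

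The 2 angiomotin relatives, junctional proteins that bind YAP and hold it outside the nucleus, differed from each other. AMOTL2 (ENSG00000114019, chr3:134355874-134375479, minus strand) measured 42.9 and 41.7 CPM in vehicle and 75.8 and 84.8 CPM at 3 h, a log2 fold change of 0.93 ± 0.098. AMOTL1 (ENSG00000166025, chr11:94706431-94876753, plus strand) measured 53.3 and 62.7 CPM in vehicle and 56.7 and 59.2 CPM at 3 h. Both treated AMOTL1 libraries fell between the controls, and the 95% interval of its log2 fold change ran from -0.23 to 0.23.

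Of the genes that act on the kinase cascade, LATS2 encodes one of the kinases that phosphorylate YAP (ENSG00000150457, chr13:20973032-21061547, minus strand). It measured 10.2 and 10.1 CPM in vehicle and 15.8 and 19.9 CPM at 3 h, a log2 fold change of 0.82 ± 0.17. AJUBA encodes a LIM-domain scaffold that binds LATS kinases at junctions (ENSG00000129474, chr14:22971174-22982642, minus strand). It measured 28.6 and 28.7 CPM in vehicle and 39.4 and 39.5 CPM at 3 h, a log2 fold change of 0.46 ± 0.11, the lowest of the 6. On the TPM scale, which also depends on the isoform lengths assigned by the quantifier, the vehicle and 3 h libraries of LATS2 overlapped, at 1.31 to 2.26 and 2.01 to 2.44 TPM, while AJUBA stayed apart. ANKRD1 (ENSG00000148677, chr10:90912096-90921276, minus strand) had 5 and 6 counts in vehicle and 8 and 10 at 3 h, too few to size a change.

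The same fit applied to all genes passed 13 of them at 3 h (0.0682%) by edgeR's quasi-likelihood test with Benjamini-Hochberg adjustment at 0.05, among them CCN1, AMOTL2 and THBS1. The genes were chosen on this contrast, so nothing is read from that number. The median log2 fold change was 0.87 over the 8 genes and 0.93 without ANKRD1, beside -0.013 over all genes.

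At 12 h the mean levels of CCN1, CCN2, THBS1, AMOTL2, LATS2 and AJUBA lay between those in vehicle and at 3 h. Of the 8 genes, 3 passed edgeR's test, all upward: AMOTL2, LATS2 and CCN1. At that time 11.4% of all genes passed, and 3.39% of all genes passed upward. This comparison shares its vehicle libraries with the one the genes were chosen on, so it is not independent of it. Of the 8 genes, 6 lay above vehicle in both 12 h libraries, where 22.9% of all genes did, and 0 lay below, where 27.9% did. On the TPM scale 4 lay above (CCN1, CCN2, AMOTL2 and AJUBA), and LATS2 and THBS1 overlapped vehicle.

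AMOTL2 measured 65.7 and 59.999 CPM at 12 h, a log2 fold change of 0.59 ± 0.10 (edgeR adjusted p = 0.00367). LATS2 measured 17.8 and 14.8 CPM, a log2 fold change of 0.72 ± 0.18 (edgeR adjusted p = 0.0235). CCN1 measured 19.4 and 12.6 CPM, a log2 fold change of 0.77 ± 0.19 (edgeR adjusted p = 0.0244). The second, shallow library gave the lower value for all 3, with 46 counts for CCN1, 54 for LATS2 and 219 for AMOTL2. Without the deep first library none of the 8 passed, beside 4.67% of all genes, and the log2 fold changes became 0.34 for CCN1, 0.52 for AMOTL2 and 0.56 for LATS2 (edgeR adjusted p = 0.573, 0.0651 and 0.279). Over all left-out libraries the log2 fold change ranged from 0.34 to 0.95 for CCN1 and from 0.52 to 0.63 for AMOTL2. For LATS2 it ranged from 0.56 to 0.80. CCN1 also missed the threshold without the second vehicle library (log2 fold change 0.68, edgeR adjusted p = 0.0606) and when the 3 h libraries were left out of the fit (0.75, adjusted p = 0.0755).

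The others did not pass. CCN2 measured 5.01 and 3.29 CPM at 12 h (log2 fold change 0.71 ± 0.31, edgeR adjusted p = 0.18), the second value on 12 counts. AJUBA measured 35.1 and 30.7 CPM (0.23 ± 0.12, edgeR adjusted p = 0.264). THBS1, at 52.6 and 50.4 CPM, stood apart from CCN1 and AMOTL2 in how close it lay to vehicle, with a log2 fold change of 0.22 ± 0.10 (edgeR adjusted p = 0.207). AMOTL1 measured 57.7 and 64.4 CPM (0.05 ± 0.11, edgeR adjusted p = 0.837), and ANKRD1 had 0 and 2 counts. HNRNPU itself rose, from 509 and 544 CPM in vehicle to 671 and 636 CPM, by 0.31 ± 0.063 on the log2 scale (edgeR adjusted p = 0.00744). That call missed the threshold without the first 12 h library (0.28, adjusted p = 0.0572).

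Set directly against 3 h, as a description, the log2 fold change at 12 h was -0.81 ± 0.10 for THBS1, -0.63 ± 0.19 for CCN1, -0.64 ± 0.31 for CCN2, -0.34 ± 0.10 for AMOTL2, -0.23 ± 0.12 for AJUBA and -0.10 ± 0.18 for LATS2. THBS1, CCN1, CCN2, AMOTL2 and AJUBA lay below both 3 h libraries at 12 h, where 28.3% of all genes did. THBS1 was the 1 gene of the 8 past the adjusted threshold in that comparison, where 8.14% of all genes were past it, 2.35% upward. LATS2 did not separate between the 2 times. On the TPM scale only CCN1 and CCN2 lay below 3 h, AMOTL1 lay above, and the other 5 overlapped.

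The Nutlin set gave a second measurement of 3 h of 5-Ph-IAA in other libraries, and none of the 7 genes that could be tested rose in it. No gene of the 17251 tested passed edgeR's test (0.0%), although 245 had an unadjusted p below 0.05. DESeq2 also called 0, with 110 below that unadjusted p. Each of the 7 genes had an edgeR adjusted p of 1.0. None of the 7 lay above vehicle in both libraries, where 14.7% of all genes did, and 1, AMOTL1, lay below, where 14.8% of all genes did. ANKRD1 fell under the count filter, with 2 and 2 counts in vehicle and 1 and 2 with 5-Ph-IAA.

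CCN1 measured 16.2 and 20.8 CPM in vehicle and 18.2 and 21.0 CPM with 5-Ph-IAA. The log2 fold change was 0.08 ± 0.22, with a 95% interval of -0.41 to 0.58. The ranges overlapped, and the interval stopped below the 1.40 of the time-course set. CCN2 measured 3.32 and 5.47 CPM in vehicle and 3.68 and 3.43 CPM with 5-Ph-IAA (-0.30, interval -1.06 to 0.47). It was the least precise of the 7, on 45 to 73 counts per library. THBS1 measured 69.6 and 67.5 CPM in vehicle and 64.0 and 67.8 CPM with 5-Ph-IAA (-0.06, interval -0.36 to 0.25).

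AMOTL2 measured 53.2 and 49.5 CPM in vehicle and 58.8 and 50.6 CPM with 5-Ph-IAA (log2 fold change 0.09, interval -0.26 to 0.44). AMOTL1 measured 64.9 and 65.9 CPM in vehicle and 64.5 and 62.9 CPM with 5-Ph-IAA (-0.04, interval -0.31 to 0.23). The 2 angiomotins thus had overlapping intervals here. LATS2 measured 15.5 and 16.9 CPM in vehicle and 19.2 and 14.9 CPM with 5-Ph-IAA (0.08, interval -0.37 to 0.53). AJUBA measured 31.2 and 27.4 CPM in vehicle and 30.1 and 27.6 CPM with 5-Ph-IAA (-0.02, interval -0.29 to 0.24). For LATS2 and AJUBA, too, the groups overlapped and the interval stopped below the time-course estimate, 0.82 and 0.46. On the TPM scale 2 genes, AMOTL2 and AJUBA, lay above vehicle in both libraries, at 11.2 and 12.0 TPM against 9.53 to 10.5 for AMOTL2 and 9.27 to 10.7 TPM against 7.55 to 8.77 for AJUBA.

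**Figure D2:**
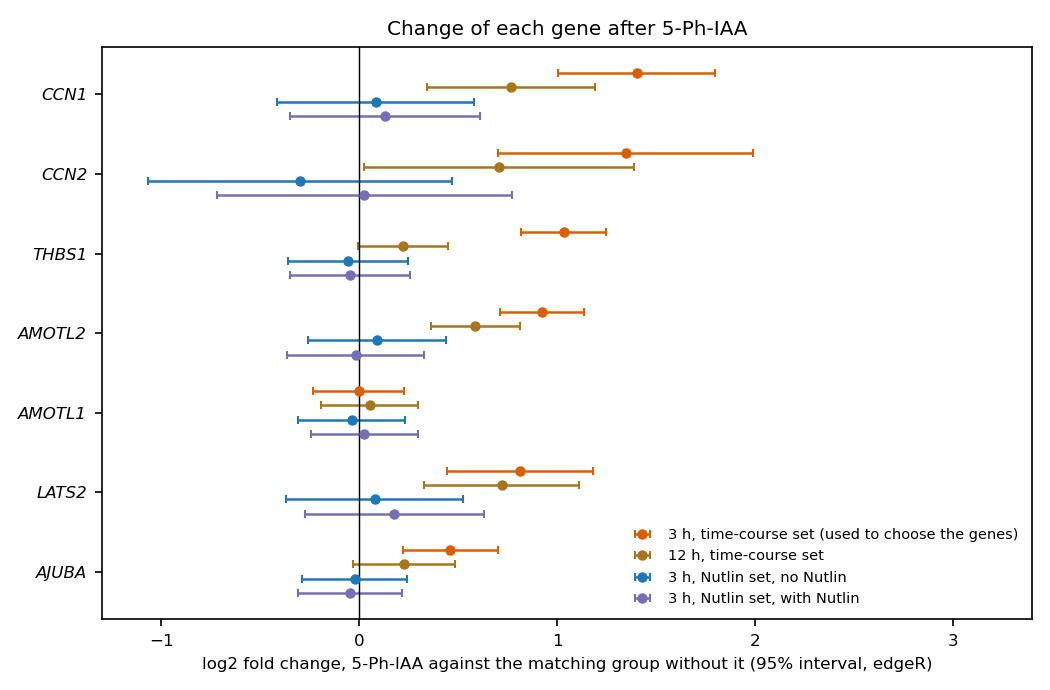
Log2 fold change of 7 target genes after 5-Ph-IAA, each against the matching group without it, with 95% intervals from edgeR. The 3 h points of the time-course set, which chose the genes, lie right of 0 for all but AMOTL1, and every interval from the Nutlin set includes 0.

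With Nutlin present none of the 7 genes passed either. Setting 5-Ph-IAA with Nutlin against Nutlin alone, 0 of 7 genes passed edgeR's test and 0.0% of all genes did, with 1404 genes at an unadjusted p under 0.05 and 24 genes called by DESeq2. The log2 fold change was 0.13 for CCN1 (interval -0.35 to 0.61), -0.02 for AMOTL2 (-0.36 to 0.33), -0.04 for THBS1 (-0.35 to 0.26), 0.18 for LATS2 (-0.27 to 0.63) and -0.05 for AJUBA (-0.31 to 0.22). CCN2 was at 0.03 (-0.72 to 0.77) and AMOTL1 at 0.03 (-0.25 to 0.30). In CPM neither direction held a gene whose libraries were apart, against 17.3% of all genes above and 18.2% below. On the TPM scale LATS2 lay above, at 2.91 and 2.16 against 2.14 and 1.31 TPM with Nutlin alone, and the others overlapped. CCN1 was the 1 gene whose call changed with a left-out library, at 0.52 (edgeR adjusted p = 0.0347) without the first Nutlin library, which held 30.7 CPM where the second held 18.6. Without that library 13.6% of all genes passed, so 1 of 7 is near the share over all genes.

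Averaged over both arms, which sets 4 libraries with 5-Ph-IAA against 4 without, the intervals narrowed and still included 0 for all 7 genes. The log2 fold change was 0.11 for CCN1 (interval -0.24 to 0.45), -0.13 for CCN2 (-0.67 to 0.40), -0.05 for THBS1 (-0.26 to 0.16), 0.04 for AMOTL2 (-0.21 to 0.28), 0.13 for LATS2 (-0.19 to 0.45) and -0.03 for AJUBA (-0.22 to 0.15). Their edgeR adjusted p-values, and that of AMOTL1, lay between 0.981 and 0.998. Over all genes 0.0% passed, with 768 genes at an unadjusted p under 0.05 and 1 gene called by DESeq2. Without the first Nutlin library 4.81% of all genes passed for this average and 5.65% for the interaction, and still 0 of the 7. The interaction of 5-Ph-IAA with Nutlin had edgeR adjusted p-values of 0.994 or more for all 7 genes, 0.0% of all genes passed it (623 had an unadjusted p below 0.05), and 1 gene passed in DESeq2.

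Nutlin by itself did not pass the test for any of the 7 genes, while 0.464% of all genes passed. None lay above vehicle in both libraries, where 18.3% of all genes did, and AMOTL1 lay below, where 17.8% did. On the TPM scale AMOTL1 overlapped vehicle. CCN1 had the highest estimate, with 30.7 and 18.6 CPM against 16.2 and 20.8 CPM in vehicle (log2 fold change 0.41 ± 0.22, edgeR adjusted p = 0.545). In the presence of 5-Ph-IAA it measured 28.1 and 25.6 CPM against 18.2 and 21.0 CPM (0.45 ± 0.22, edgeR adjusted p = 0.69), and here its libraries did not overlap. That was 1 of 7 genes above, where 23.1% of all genes were, and AMOTL1 and THBS1 lay below, where 23.3% were. On the TPM scale CCN1 and CCN2 lay above and the others overlapped, AMOTL1 and THBS1 included. By the adjusted test 0 of 7 genes passed there, beside 0.388% of all genes.

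The 2 Nutlin libraries differed from each other for most of the family. The first was higher for all 7 genes, with 74.01 against 53.8 CPM for THBS1, 69.6 against 48.8 for AMOTL2 and 16.6 against 11.5 for LATS2. Leaving out the first made AMOTL1 and THBS1 pass as lower (log2 fold change -0.39 and -0.35, edgeR adjusted p = 0.012 and 0.0237). Leaving out the second made CCN1 and AMOTL2 pass as higher (0.74 and 0.44, edgeR adjusted p = 0.00992 and 0.0259). The calls over all genes moved with them, from 0.464% to 11.6% without the first library and to 6.4% without the second. When only the 2 groups compared entered the fit, CCN1 passed in the presence of 5-Ph-IAA (0.46, edgeR adjusted p = 0.022), beside 3.78% of all genes.

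The difference between the sets in the 3 h response was computed in 1 fit of the 8 vehicle and 3 h 5-Ph-IAA libraries. It uses the libraries that chose the genes and is given as a description. The time-course effect minus the Nutlin-set effect was 1.33 ± 0.21 on the log2 scale for CCN1, 1.66 ± 0.38 for CCN2, 1.10 ± 0.12 for THBS1, 0.84 ± 0.13 for AMOTL2, 0.75 ± 0.22 for LATS2 and 0.50 ± 0.14 for AJUBA. For AMOTL1 it was 0.05 ± 0.13. Over all genes the median difference was -0.001, and 0.0636% passed in that fit. THBS1, CCN1 and AMOTL2 were past the threshold, the last 2 close to it. THBS1 alone stayed past it with the replicate block, with other size factors (RLE) and in 6 of the 8 fits that left out a library, and none of the 7 was past it with all 14 libraries in 1 fit.

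The vehicle libraries of the sets were not alike for these genes. With all 14 libraries scaled together, THBS1 measured 46.9 and 45.2 CPM in the time-course vehicle and 67.5 and 65.6 CPM in the Nutlin-set vehicle, between the time-course vehicle and the 88.7 and 100.7 CPM of its 3 h libraries. CCN1 measured 11.2 and 9.56 CPM in the first, 15.7 and 20.2 in the second and 25.8 and 29.5 in the 3 h libraries. LATS2 measured 10.6 and 10.5 CPM in the first and 14.98 and 16.4 in the second, close to the 16.5 CPM of the lower 3 h library. CCN2 measured 2.61 and 2.96 CPM in the first and 3.22 and 5.31 in the second, and AMOTL2 44.6 and 43.2 in the first and 51.6 and 48.1 in the second. The Nutlin-set vehicle thus lay wholly above the time-course vehicle for 5 of 7 genes and wholly below for none, where 30.6% and 30.4% of all genes did.

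As log2 differences, Nutlin-set vehicle minus time-course vehicle was 0.78 ± 0.23 for CCN1, 0.61 ± 0.32 for CCN2, 0.57 ± 0.20 for LATS2 and 0.53 ± 0.12 for THBS1. It was 0.18 ± 0.14 for AMOTL2, 0.08 ± 0.12 for AMOTL1 and -0.06 ± 0.11 for AJUBA, beside a median of 0.02 over all 18290 genes of that fit. Set and any difference in handling or sequencing between the sets cannot be told apart, so no test is given. The part of this vehicle difference in the result at 3 h was not tested.

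**Figure D3:**
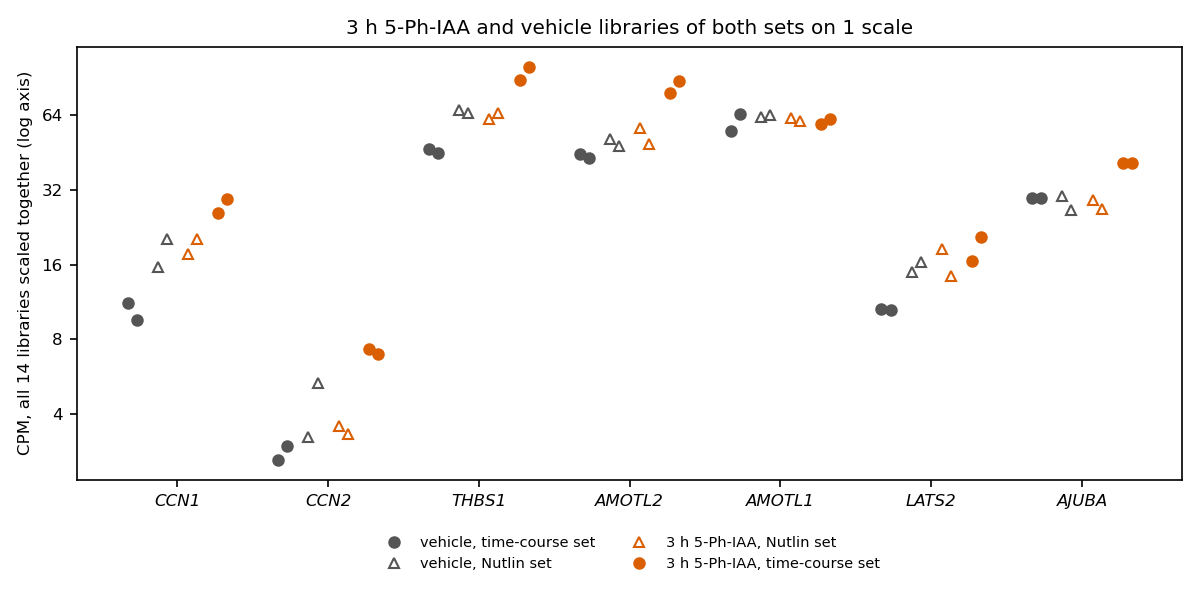
Vehicle and 3 h 5-Ph-IAA libraries of both sets with all 14 libraries scaled together, in CPM on a log axis, circles for the time-course set and triangles for the Nutlin set. For CCN1, CCN2, THBS1, AMOTL2 and LATS2 the triangles lie above the time-course vehicle, and for the first 4 of these also below the time-course 3 h libraries.

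Of the 7 well-measured genes, 6 varied together across libraries, and AMOTL1 did so least. After centring on the mean of each set, the Pearson correlation of a gene with the mean of the other 6 over 14 libraries was 0.94 for AMOTL2, 0.88 for AJUBA, 0.88 for CCN1, 0.86 for CCN2, 0.84 for THBS1 and 0.82 for LATS2, and 0.10 for AMOTL1. The time-course libraries carry the 3 h contrast that chose the genes, and libraries share scaling factors, so these values are descriptive. Within the 8 Nutlin-set libraries they were 0.75 for AMOTL2, 0.59 for LATS2, 0.55 for CCN2, 0.54 for CCN1, 0.51 for THBS1, 0.44 for AMOTL1 and 0.39 for AJUBA. There the mean of the family was lowest in the second Nutlin library, at -0.23, and highest in the first, at 0.24, in log2 units from the set's mean.

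Of 9592 other well-expressed genes, the 10 most like the family's mean over the 14 libraries included PVR (r = 0.89), NOCT (0.88), ZFYVE27 (0.88), C1orf116 (0.88), CYTOR (0.85), CPA4 (0.84), CSTPP1 (0.83), NF2 (0.83) and MEIS2 (0.81). The log2 fold changes of these named genes at 3 h ranged from 0.23 for PVR to 1.124 for C1orf116 in the time-course set and from -0.14 for C1orf116 to 0.09 for CYTOR in the Nutlin set. NF2, the membrane scaffold that activates LATS kinases, measured 131.5 and 127.0 CPM in time-course vehicle and 157.4 and 161.1 CPM at 3 h. Its log2 fold change was 0.30 ± 0.073 (edgeR adjusted p = 0.363). Over the 14 libraries the family's mean was lowest in the time-course vehicle, at -0.43 and -0.42 log2 units after centring. It was highest in the 3 h libraries beside them, at 0.36 and 0.49. Genes picked for following that mean, NF2 included, were thus favoured to be positive in that contrast. Their 3 h values there are descriptive, and the p-value of NF2 is not an independent test.

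The machinery upstream of the targets was expressed. YAP1 had a median of 23.8 TPM over the 14 libraries, WWTR1, which encodes TAZ, 7.52, TEAD4 13.1, TEAD1 9.66, TEAD2 6.09 and TEAD3 2.36 TPM. Of 26 Hippo pathway genes and TEAD factors tested, 0 rose and 0 fell at 3 h in the time-course set, with a median log2 fold change of 0.07. YAP1 was at -0.16 ± 0.083 (edgeR adjusted p = 0.804), TEAD1 at 0.12 ± 0.093 (0.898) and LATS1, the paralogue of LATS2, at -0.24 ± 0.12 (0.77). At 12 h 5 rose and 3 fell, where 11.4% of all genes passed and 3.39% passed upward. Whether the list calls at 12 h held without the deep first 12 h library was not tested. The 4 with the lowest p were FAT1, a giant cadherin (0.30 ± 0.046, edgeR adjusted p = 0.00178), MOB1A and MOB1B, which activate LATS kinases (-0.47 ± 0.080 and -0.65 ± 0.12, adjusted p = 0.00316 and 0.00542), and the kinase MAP4K4 (0.45 ± 0.088, adjusted p = 0.00687). In the Nutlin set 0 of 26 changed with 5-Ph-IAA, with a median of -0.01.

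Of 14 further genes of published YAP signatures tested, 0 rose and 0 fell at 3 h in the time-course set, with a median of 0.10. The 2 most expressed, MYOF and DOCK5, were at 0.06 ± 0.059 and 0.10 ± 0.091. An unadjusted p under 0.05 was reached by 5 of the 14, where 6.45% of all genes reached it. Those 5 estimates were all positive: 1.62 for NUAK2, 0.66 for FJX1, 0.60 for F3 (edgeR adjusted p = 0.067, the lowest of the 5), 0.32 for CRIM1 and 0.19 for AXL. That unadjusted p was also reached by 7 of 19 immediate early genes and 3 of 15 SRF and MRTF targets. Of the Hippo pathway genes and TEAD factors 3 of 26 reached it, and of TGF-beta targets 1 of 10. At 12 h 1 rose and 2 fell, where 11.4% of all genes passed and 3.39% passed upward. NT5E, the ectoenzyme CD73, fell from 82.9 and 78.7 CPM to 36.0 and 35.9 CPM (log2 fold change -1.17 ± 0.11, edgeR adjusted p = 0.000229). IGFBP3 fell from 1.11 and 1.98 CPM to 0.07 and 0.27 CPM (adjusted p = 0.0349), and the kinase NUAK2 rose from 0.75 and 0.97 CPM to 2.54 and 3.29 CPM (adjusted p = 0.0407), all by edgeR. In the Nutlin set 0 of 15 changed with 5-Ph-IAA. With Nutlin 1 of 15 rose, where 0.394% of all genes did. It was GADD45A, a stress gene that is also a p53 target (1.14 ± 0.12, edgeR adjusted p = 0.00196).

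Lists of neighbouring programmes were read in the same fit. Of 15 SRF and MRTF targets, cytoskeletal genes that share stimuli with YAP, 0 changed at 3 h (median 0.14), with ACTB at 0.14 ± 0.049 and ACTG1 at 0.07 ± 0.051. At 12 h 5 rose and 1 fell, where 11.4% of all genes passed and 3.39% passed upward. The 4 of lowest p were all upward, MYH9 at 0.46 ± 0.068, FLNA at 0.34 ± 0.063, ACTG1 at 0.23 ± 0.051 and CNN2 at 0.41 ± 0.10. The median of 10 TGF-beta targets was 0.28 at 3 h in the time-course set and 0.004 over the 9 tested in the Nutlin set.

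Of 19 immediate early genes, 0 rose and 1 fell at 3 h (median 0.09), where 0.0682% of all genes passed. FOS, the AP-1 subunit, fell from 37.3 and 30.4 CPM to 15.2 and 13.99 CPM (-1.21 ± 0.14, edgeR adjusted p = 0.00419). The others with an unadjusted edgeR p under 0.05 did not pass after adjustment. They were JUN (0.58), ATF3 (0.51), FOSL1 (0.46), IER3 (0.34) and KLF6 (0.26) upward and EGR1 (-0.43) downward. In the Nutlin set 0 of 19 changed with 5-Ph-IAA (median -0.13), and FOS was at -0.30 ± 0.13 (edgeR adjusted p = 1.0). With Nutlin 4 of 19 rose and 1 fell, where 0.464% of all genes passed. Among them were ATF3 upward (2.21 ± 0.12, edgeR adjusted p = 1.39e-05) and FOSB downward (-0.89 ± 0.15, edgeR adjusted p = 0.0345).

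**Figure D4:**
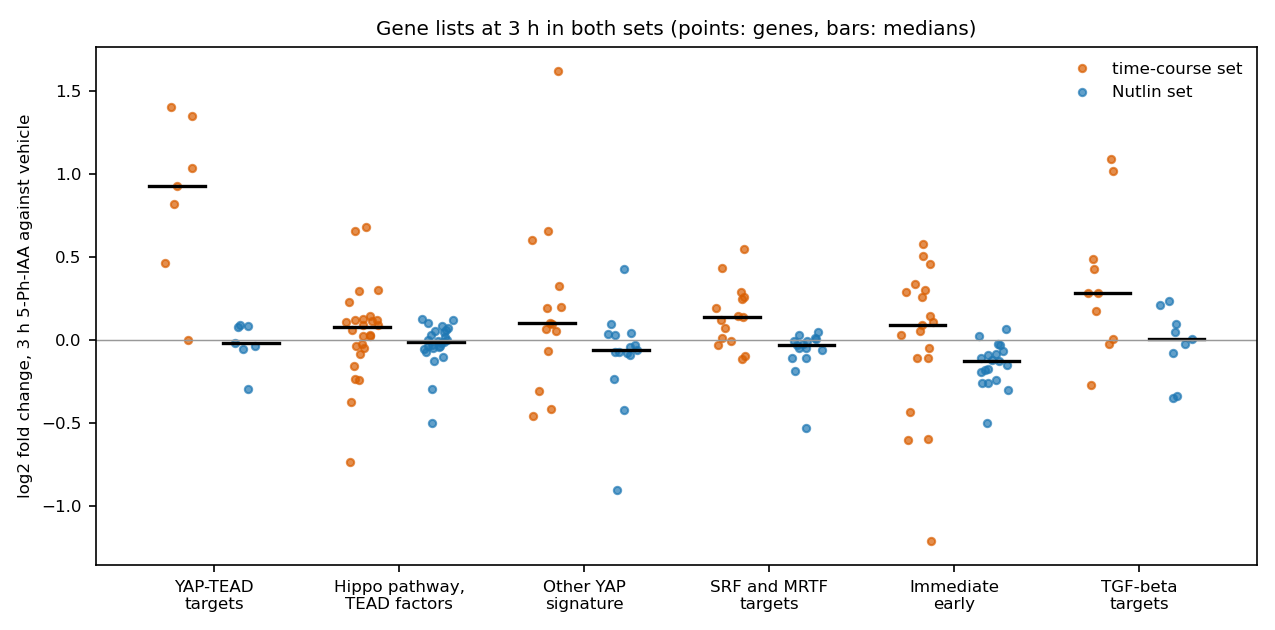
Log2 fold change at 3 h of 5-Ph-IAA for each gene of 6 lists in both sets, points for genes and bars for medians. In the time-course set the median is 0.93 for the 7 target genes tested in both sets and between 0.07 and 0.28 for the other lists, and in the Nutlin set every median lies between -0.13 and 0.004.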

How the data were processed

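Gene tables of 14 bulk RNA-seq libraries (stranded total RNA) were used. The authors deposited, per the file headers, RSEM expected counts and TPM for 78686 gene identifiers per library. STAR 2.7.10b, RSEM, DESeq2 1.48.1 and GRCh38 are named, per the submitters' processing notes, and the annotation release is not given in the sources used here. Symbols matched 78.1% of identifiers, positions came from GENCODE 29, and upstream sequences came from RefSeq (GRCh38.p14).

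Expected counts were rounded, and each set was fitted alone with edgeR 4.0.16 in R 4.3.3 (TMM, filterByExpr with minimum count 10 and total 15, 1 coefficient per group, two-sided quasi-likelihood tests, Benjamini-Hochberg over all genes, threshold 0.05). This kept 19049 genes in the time-course set, with 3 residual degrees of freedom, and 17251 in the Nutlin set, with 4. The SE is the log2 fold change over the square root of F. Deposited TPM gave levels between genes. DESeq2 1.42.0, no count filter, a replicate block, only the compared groups, all 14 libraries together and each library left out were the alternatives.

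The genes and lists were chosen with earlier results of these data known. Named genes were the 8 targets, HNRNPU, up to 4 genes of lowest p per list (or the 2 most expressed where none passed), and the 10 most correlated genes with a mean log2 CPM of at least 3. Genes outside this rule, among them YAP1, the TEAD genes, LATS1, NUAK2, FJX1, F3, CRIM1 and AXL at 3 h, and the markers, were added for context after their values were seen. Some genes that the rule names are not reported here. The fit was tested on simulated data.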

Additional observations from a re-analysis of the deposited data

Results flagged for a closer look

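For 3 of the 7 genes tested the 3 h effect of 5-Ph-IAA differed between the sets by the interaction in the joint fit. Of all genes 0.0636% passed there. DESeq2 called 3 of 8 genes, where 0.111% of all genes passed. The fit without the count filter called 4 of 8, where 0.489% passed. The time-course effect exceeded the Nutlin-set effect by 1.33 on the log2 scale for CCN1, by 0.845 for AMOTL2 and by 1.1 for THBS1. The genes were chosen on the time-course side of that difference, so it is a description and not independent evidence. The calls for CCN1 and AMOTL2 (edgeR adjusted p = 0.048 for both) were lost with RLE size factors, with the replicate block and with all 14 libraries in 1 fit, which also lost THBS1 (edgeR adjusted p = 0.0725). Of 8 fits that each left out a library, 1 called all 3 genes, 1 called CCN1 and THBS1, and 6 called THBS1 alone. The vehicle libraries of the sets did not overlap for any of these 3 genes, and their part in these differences was not tested.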

How the results depend on the processing

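The calls of the 7 tested genes in the Nutlin set stayed at 0 for 5-Ph-IAA against vehicle, for the average over both arms and for the interaction under every alternative run. They moved with the library left out for 5-Ph-IAA with Nutlin against Nutlin, for Nutlin against vehicle and for 12 h against vehicle. The share of all genes called moved too. Fitting only the compared groups gave 1 call for Nutlin in the presence of 5-Ph-IAA, where 3.78% of all genes passed. Where a group kept 1 library, it was assumed to vary like the others. No direction turned among values past the threshold. Over left-out libraries the median log2 fold change of the 7 genes other than ANKRD1 ranged from 0.85 to 1.02 at 3 h, from -0.44 to -0.27 for 12 h against 3 h and from 0.74 to 0.97 for the difference between sets.

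Replicate numbers did not pair the libraries: correlations of same-numbered deviations ran from -0.089 to 0.047. With the replicate block, 3 genes passed at 12 h, as without it, where 13.1% of all genes did. Also as without it, 0 passed in every Nutlin-set comparison, where at most 0.354% of all genes did. The genes called went from 1 to 2 for 12 h against 3 h (CCN1 and THBS1), where 9.98% of all genes passed with the block. For the difference between sets they went from 3 to 1 (THBS1), where 0.0318% of all genes passed. All-gene calls went from 13 to 45 at 3 h in the time-course set and from 12 to 6 for the difference between sets.

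All-gene counts depended on the setting. Without the count filter they became 193 at 3 h (52 with DESeq2), 2448 for 12 h against 3 h (1551 with the filter), 53 for 5-Ph-IAA in the Nutlin set, 136 with Nutlin (24 with DESeq2), 81 for the average (1 with DESeq2), 57 for the interaction (1 with DESeq2), 177 for the difference between sets (40 with DESeq2, 3 with all 14 libraries), 405 for Nutlin (152 with DESeq2, 80 by the main test) and 270 for Nutlin with 5-Ph-IAA (67 by the main test). With the compared groups only they became 9 for 5-Ph-IAA, 27 for Nutlin, 622 for Nutlin with 5-Ph-IAA and 1391 at 12 h (2163 by the main test). Leaving out the first Nutlin library moved the counts to 2490 for 5-Ph-IAA with Nutlin, 882 for the average, 1035 for the interaction and 2131 for Nutlin, and leaving out the second gave 42, 2, 5 and 1177. Over left-out libraries the count ranged from 23 to 283 at 3 h (highest without the first vehicle library), from 961 to 2446 at 12 h, from 612 to 1545 for 12 h against 3 h from 16 to 28 for Nutlin with 5-Ph-IAA and from 5 to 145 for the difference between sets. The cause was not tested. Depth limits CCN2 and ANKRD1 throughout, and every gene in the shallow 12 h library.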
